A study of Mus musculus with 12 samples.

Results

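The genes described here drive and police mitosis. They are 46 mouse genes for G2/M cyclins and Cdk1, mitotic kinases, the spindle checkpoint, the kinetochore, mitotic kinesins and cytokinesis, anaphase onset and chromosome condensation, taken by symbol from a count table of 55421 gene identifiers. All 46 matched an identifier, and all 46 passed the filter on low counts. RNA was counted in small intestine of 3 groups, with 4 libraries in each. The Apc Eif3h group carried VilCreER with floxed alleles of both Apc and Eif3h (VilCreER Apc fl/fl Eif3h fl/fl), and all 4 libraries were from males labelled day 4. The Apc group carried VilCreER and floxed Apc alone (VilCreER Apcfl/fl), from 3 males and 1 female (replicate 1), also labelled day 4. The WT group was labelled wild type with no Cre named, from 3 males and 1 female (replicate 4), and labelled day 7. The labels' treatment text gives 2 tamoxifen injections of 80 mg/kg, 24 hours apart, to all 3 groups, and a harvest after 7 days for all of them, which goes against the day 4 labels. Against WT, genotype, Cre and labelled day therefore cannot be told apart. In VilCreER mice villin regulatory sequence drives a tamoxifen-activated Cre in intestinal epithelial cells, so other cells of the tissue keep both floxed genes. Apc restrains Wnt signalling by promoting the destruction of beta-catenin, and Eif3h encodes a subunit of eIF3, which brings mRNA to the small ribosomal subunit. Whether each replicate came from a separate animal is not in the labels, although the sexes set the female WT and Apc libraries apart from the males. The p-values therefore rest on the spread between these libraries, part of which may be technical.

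A cell enters mitosis when A- and B-type cyclins activate the kinase Cdk1. Kinetochores, the protein assemblies that bind each centromere to spindle microtubules, send a checkpoint signal while they are unattached, and that signal holds back the anaphase-promoting complex (a ubiquitin ligase, not the product of Apc). Once every chromosome is attached, Cdc20 turns this ligase on, securin and cyclin B are destroyed, separase cuts cohesin, and the midzone and a contractile ring split the cell. Most of these genes are transcribed in G2 and mitosis: the DREAM complex represses them in resting cells, and the MuvB core with B-Myb and FoxM1 activates them, through cell cycle genes homology region (CHR) elements that often lie downstream of CCAAT boxes bound by NF-Y. In the small intestine dividing cells sit in the crypts, while the enterocytes of the villus no longer divide.

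RefSeq promoter windows (build GRCm38.p6, 250 bases before to 50 bases after the annotated start) were found for 38 of the 46 genes. None was in the table for Ccna2, Cdc25c, Tpx2, Aurkb, Incenp, Spc24, Kif20a and Smc4. Each window was searched on both strands for the CHR element, spelled TTTGAA (or, as its second form, TTTAAA), and for the CCAAT box. The sequences printed are those of the 3 genes of highest and the 3 of lowest mean level among those with both elements whose RefSeq start lies at most 50 bases inside the GENCODE gene, and Nusap1 as a gene with neither. They are Top2a (chr11:99024160-99024439, minus strand), Mki67 (chr7:135716350-135716629, minus strand), Ube2c (chr2:164769679-164769927, plus strand), Spc25 (chr2:69206184-69206463, minus strand), Gtse1 (chr15:85859457-85859736, plus strand), Ttk (chr9:83834439-83834718, plus strand) and Nusap1 (chr2:119618048-119618327, plus strand). Each is written along the gene's own strand from 250 bases before the RefSeq start to at most 30 bases after the first annotated base. Capitals mark CHR elements and CCAAT boxes, each on either strand, so that a reverse CHR element reads TTCAAA and a reverse CCAAT box reads ATTGG. In Ube2c a CCAAT box and a reverse box share 2 bases.
Top2a: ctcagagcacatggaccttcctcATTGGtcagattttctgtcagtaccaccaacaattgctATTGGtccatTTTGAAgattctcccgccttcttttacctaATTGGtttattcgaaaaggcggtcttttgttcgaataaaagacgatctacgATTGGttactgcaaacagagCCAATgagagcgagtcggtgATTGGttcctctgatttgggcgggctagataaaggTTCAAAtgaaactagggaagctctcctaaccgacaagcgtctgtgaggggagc
Mki67: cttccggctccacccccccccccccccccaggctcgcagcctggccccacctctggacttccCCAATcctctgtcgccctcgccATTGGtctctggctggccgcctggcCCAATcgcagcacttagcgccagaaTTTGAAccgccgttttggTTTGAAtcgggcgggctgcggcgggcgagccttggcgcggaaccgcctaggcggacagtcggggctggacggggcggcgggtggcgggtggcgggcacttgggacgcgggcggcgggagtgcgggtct
Ube2c: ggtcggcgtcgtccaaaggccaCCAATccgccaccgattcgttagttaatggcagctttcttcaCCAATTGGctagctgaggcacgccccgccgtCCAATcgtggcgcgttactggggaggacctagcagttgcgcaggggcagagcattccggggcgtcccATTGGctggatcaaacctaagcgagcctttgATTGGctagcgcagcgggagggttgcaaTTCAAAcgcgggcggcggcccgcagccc
Spc25: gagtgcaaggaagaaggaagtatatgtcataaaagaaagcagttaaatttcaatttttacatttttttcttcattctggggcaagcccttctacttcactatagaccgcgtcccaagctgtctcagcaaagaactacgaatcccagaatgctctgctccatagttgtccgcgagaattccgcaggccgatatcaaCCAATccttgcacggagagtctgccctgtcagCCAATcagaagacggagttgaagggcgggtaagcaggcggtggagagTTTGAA
Gtse1: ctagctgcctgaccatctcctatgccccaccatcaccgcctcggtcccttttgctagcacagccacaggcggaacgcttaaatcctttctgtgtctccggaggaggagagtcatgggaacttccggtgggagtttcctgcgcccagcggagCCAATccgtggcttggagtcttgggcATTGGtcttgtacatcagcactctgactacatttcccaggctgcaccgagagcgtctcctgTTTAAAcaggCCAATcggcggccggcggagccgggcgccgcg
Ttk: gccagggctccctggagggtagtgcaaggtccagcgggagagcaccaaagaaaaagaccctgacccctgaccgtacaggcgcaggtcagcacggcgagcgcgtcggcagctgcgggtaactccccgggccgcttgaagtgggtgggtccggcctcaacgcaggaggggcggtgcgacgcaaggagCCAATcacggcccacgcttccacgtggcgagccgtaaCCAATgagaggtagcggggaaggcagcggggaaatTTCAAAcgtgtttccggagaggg
Nusap1: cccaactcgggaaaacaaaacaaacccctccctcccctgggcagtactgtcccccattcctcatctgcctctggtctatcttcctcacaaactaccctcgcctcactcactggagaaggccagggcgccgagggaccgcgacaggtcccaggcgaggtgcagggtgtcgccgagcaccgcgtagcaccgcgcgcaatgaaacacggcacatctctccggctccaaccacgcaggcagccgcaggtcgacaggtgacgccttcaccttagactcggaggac

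A CHR element was in the window of 32 of the 38 genes (84.2%), against 30.6% of the 27025 genes in the RefSeq table. A CCAAT box was in 29 of the 38 (76.3%), against 41.1% of all genes. Both were present in 27 (71.1%), against 12.2% of all genes. Neither was present in Mad2l1, Nuf2, Nusap1 and Pttg1, which are 10.5% of the 38, against 41.8% of all genes. The CHR matches sat close to the start: 28 of the 38 genes (73.7%) had one within 50 bases of it, against 9.5% of all genes. Counted by match, 36 of 52 CHR matches (69.2%) in these genes lay within 50 bases, against 25.1% of CHR matches over all windows. The median GC content was 59.2% in these genes' windows and 52.8% over all genes, so base composition differed too. The 14 S-phase replication genes with a window had CCAAT boxes at a similar share (71.4%) but CHR elements in 28.6%. Of 143 other mitotic genes, described below, 119 had a window. Of those 119, 42.0% had a CHR element, 53.8% a CCAAT box and 26.9% both. A CHR match lay within 50 bases of the start in 28.6% of them. The shares of the 38 genes were thus well above those of the other mitotic genes, a difference that was not tested. RefSeq and GENCODE starts lay within 50 bases of each other in 29 of the 38 genes and further apart in 9, so some windows may sit off the start used in this tissue. A match is a description of these letters and not evidence of binding.

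**Figure D1:**
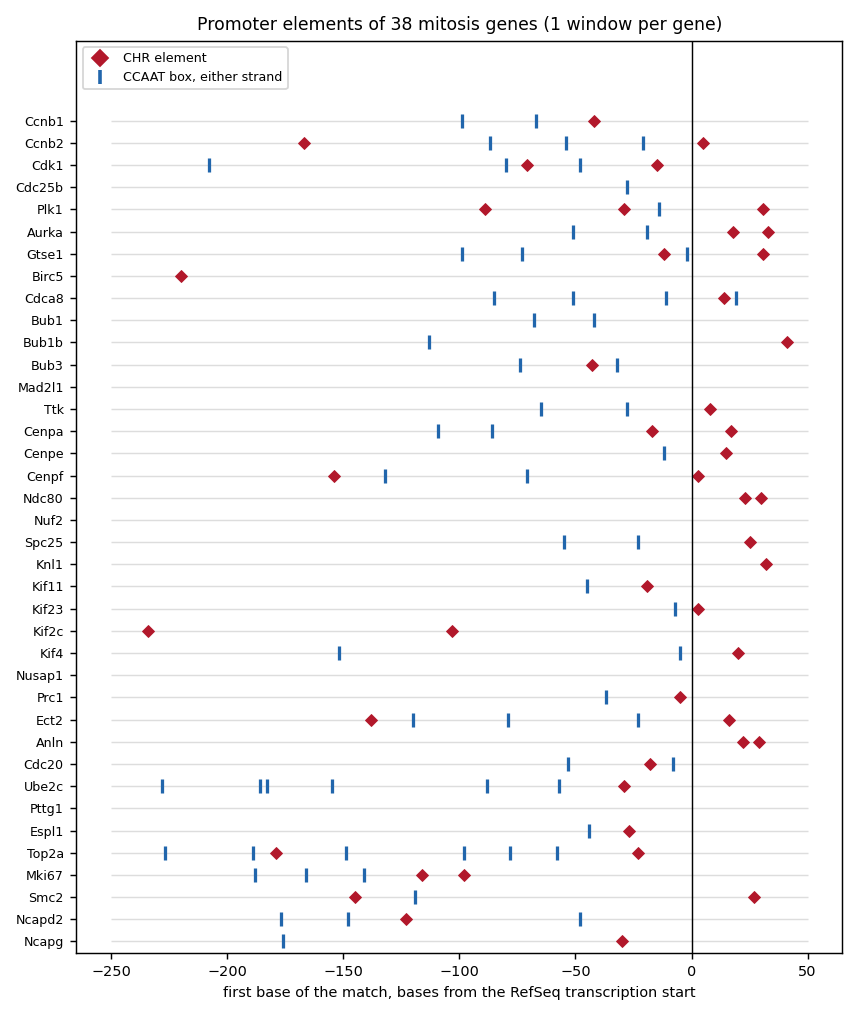
Positions of CHR elements (diamonds) and CCAAT boxes on either strand (bars) in 1 RefSeq promoter window for each of 38 mitosis genes; the x axis is the distance in bases of the first base of each match from the annotated start (vertical line), and genes run down the page by role. CHR matches gather near the start, with CCAAT boxes mostly upstream of them, and the rows of Mad2l1, Nuf2, Nusap1 and Pttg1 are empty.

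Library totals ran between 10483112 and 21298301 counts. Levels are library-scaled counts after TMM normalization (CPM), listed in the order of replicates 1 to 4. Eif3h stood at 28.3, 43.1, 54.6 and 25.9 CPM in Apc Eif3h libraries, 168, 164, 158 and 175 CPM in Apc libraries, and 142, 126, 134 and 135 CPM in WT libraries, so its loss followed the labels (log2 fold change -2.13, SE 0.19, edgeR adjusted p = 0.000405 for Apc Eif3h against Apc). Counts over the whole Apc gene do not show the loss of floxed exons, and Apc averaged 105 ± 12.01 CPM in Apc Eif3h libraries, 114 ± 6.96 CPM in Apc libraries and 94.2 ± 5.02 CPM in WT libraries. The Apc gene was called higher for Apc against WT, without overlap (log2 fold change 0.28, SE 0.09, edgeR adjusted p = 0.0177). It was not called for Apc Eif3h against Apc or against WT. All 6 epithelial markers and all 4 small intestine markers were detected in every group. The Apc Eif3h replicate 2 library stood apart in markers of B and germinal centre cells, a lymphoid cell type that also divides: their 10 genes summed to 958 CPM there, 20.8 to 21.4 CPM in the other Apc Eif3h libraries, 21.8 to 26.1 CPM in Apc libraries and 28.9 to 163 CPM in WT libraries. It was also the highest of its group in T cell markers (68.6 CPM, against 27.7 to 36.3 CPM) and macrophage markers (138 CPM, against 98.7 to 108 CPM). The same held for endothelial markers (87.4 CPM, against 54.5 to 65.0 CPM) and smooth muscle markers, but not for fibroblast markers. In epithelial markers it was the lowest of its group (5980 CPM, against 7323 to 8625 CPM). That library was not the highest of its group in any of the 46 genes.

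Nearly the whole mitotic set was higher in Apc than in WT small intestine. At an adjusted p below 0.05 (edgeR quasi-likelihood test, Benjamini-Hochberg over 17394 genes) 45 of the 46 genes were called higher and 0 lower, against 27.7% of all genes tested called higher and 24.1% called lower. DESeq2 gave the same counts, and 0 genes were lower at an unadjusted p below 0.05, against 27.5% of all genes. Over 2-fold higher were 39 of the 46, against 9.35% of all genes. In 45 of the 46 every Apc library lay above every WT library, against 26.7% of all genes. The median log2 fold change was 1.32, beside a median of -0.01 over all genes tested, and the called genes ran between 0.59 for Bub3 and 2.04 for Ect2. The exception was Pttg1. In bulk tissue, fewer cells of a type and less RNA per cell cannot be told apart, so these values do not separate more dividing cells from more mitotic RNA in each. The 5 enterocyte markers summed to 6592 to 12821 CPM in Apc libraries and 16609 to 22781 CPM in WT libraries, with 3 of 5 called lower and 2 not called. Called lower too were 2 of the 6 epithelial markers and 2 of the 4 small intestine markers. The small intestine markers summed to 1819 to 2363 CPM in Apc libraries and 2727 to 3594 CPM in WT libraries. Of other cell types, 3 of 4 macrophage, 2 of 4 smooth muscle, 1 of 4 fibroblast and 1 of 3 endothelial markers were called lower. Of the 5 B cell markers tested 1 was called higher, and the 4 not called had fold changes below 0 (median log2 fold change of the 5 -1.31). The 10 listed B cell genes summed to 21.8 to 26.1 CPM in Apc libraries and 28.9 to 163 CPM in WT libraries. The 6 T cell markers were all called lower (summed to 23.3 to 35.6 CPM in Apc libraries and 42.00 to 121 CPM in WT libraries), and the part of these changes in the mitotic values was not tested.

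**Figure D2:**
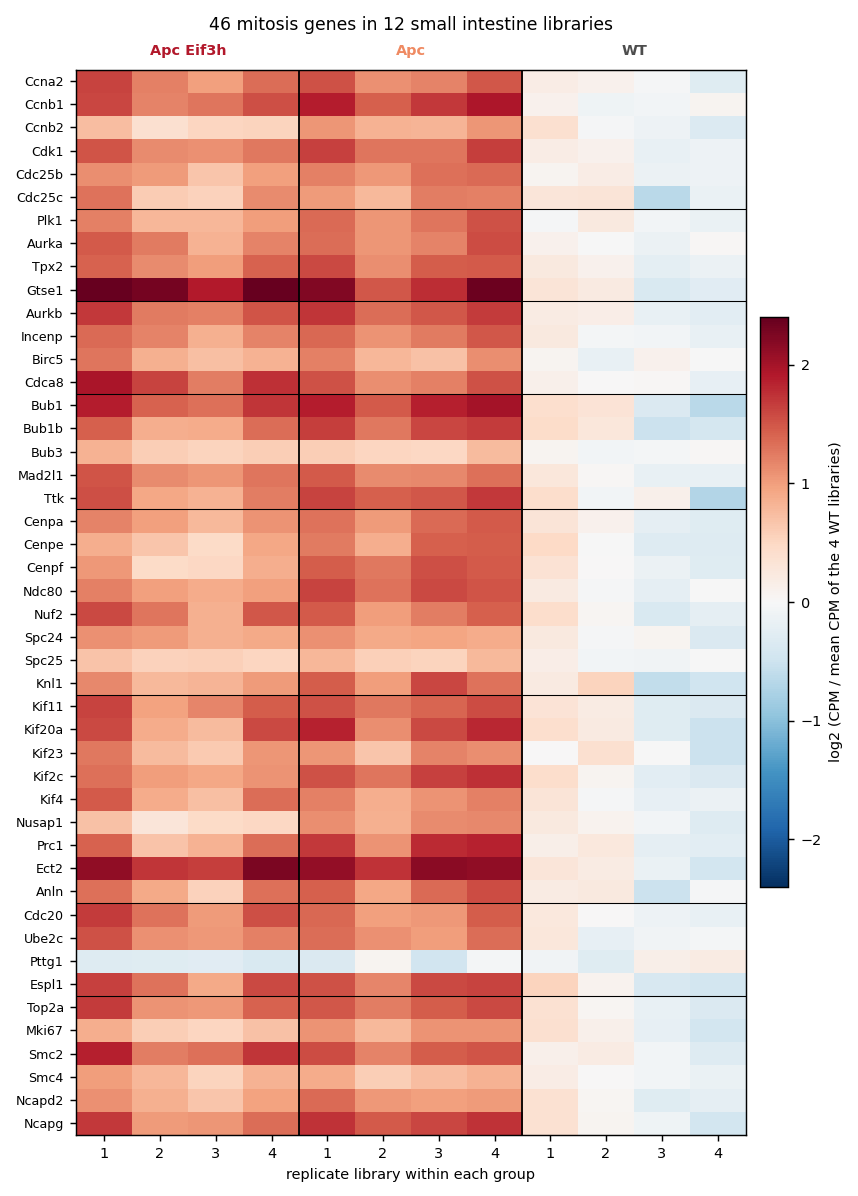
Level of each of the 46 mitosis genes in the 12 libraries, as log2 of CPM over the mean CPM of the 4 WT libraries (colour scale: red above that mean, blue below); columns are replicates 1 to 4 of Apc Eif3h, Apc and WT, and rows run by role. All rows but Pttg1 are red in the Apc Eif3h and Apc columns, and Ect2 and Gtse1 are the deepest.

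All 6 genes of the entry switch were called higher in Apc than in WT, with a median log2 fold change of 1.28. Cyclin B1, the main mitotic partner of Cdk1, had the highest fold change of the 6. Ccnb1 stood at 25.00, 19.00, 20.2 and 24.2 CPM in Apc Eif3h libraries, 30.4, 22.5, 26.98 and 31.8 CPM in Apc libraries, and 8.83, 7.69, 7.90 and 8.65 CPM in WT libraries (log2 fold change 1.75, SE 0.13, edgeR adjusted p = 4.11e-06 for Apc against WT). The lowest Apc library and the lowest Apc Eif3h library were both far above the highest WT library. Cdk1 itself reached 95.9, 75.2, 74.7 and 96.5 CPM in Apc libraries, against 34.7, 32.8, 27.2 and 28.2 CPM in WT libraries (log2 fold change 1.48, SE 0.13, edgeR adjusted p = 9.28e-06). Cyclin A2 (Ccna2), which acts from S phase into early mitosis, averaged 104 ± 14.99 CPM in Apc and 41.3 ± 5.77 CPM in WT libraries (SD, n = 4 each; log2 fold change 1.33 (SE 0.15)). Cyclin B2 (Ccnb2) changed least of the 3 cyclins, at 0.95 (SE 0.14, edgeR adjusted p = 0.000156). The phosphatases that strip inhibitory phosphate from Cdk1 also rose, by 1.23 (SE 0.12) for Cdc25b and 1.07 (SE 0.24) for Cdc25c. Per kb of all its annotated exons together, Cdc25c was the scarcest of the 46 genes in Apc and in WT libraries.

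The 4 genes for mitotic kinases and spindle assembly were all higher, with a median log2 fold change of 1.37. Plk1, a kinase of centrosome maturation and mitotic entry, had 48.4, 39.5, 45.96 and 55.01 CPM in Apc libraries, against 18.5, 22.2, 18.2 and 16.9 CPM in WT libraries (log2 fold change 1.31, SE 0.13, edgeR adjusted p = 1.72e-05). Aurka, the centrosomal Aurora kinase, and Tpx2, the protein that activates it on the spindle, changed by 1.30 (SE 0.14) and 1.42 (SE 0.14). The largest change of the 4 was in Gtse1, a microtubule-binding protein made in G2. Gtse1 stood at 30.01, 22.6, 17.1 and 24.1 CPM in Apc Eif3h libraries, 21.6, 12.96, 15.6 and 23.4 CPM in Apc libraries, and 5.66, 5.34, 3.58 and 3.79 CPM in WT libraries (log2 fold change 1.99, SE 0.24, edgeR adjusted p = 4.83e-05 for Apc against WT). Its Apc libraries did not overlap the WT libraries but were spread, with replicates 1 and 4 high and 2 and 3 low. All 4 subunits of the chromosomal passenger complex, which corrects faulty attachments and later guides cytokinesis, were higher (median 1.33). The kinase Aurkb changed by 1.56 (SE 0.14), the scaffold Incenp by 1.31 (SE 0.13), borealin (Cdca8) by 1.35 (SE 0.15) and survivin (Birc5) by 0.97 (SE 0.14).

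The 5 spindle checkpoint genes had the highest median of any role, 1.56, and all 5 were called higher in Apc than in WT. Bub1, a kinase that recruits checkpoint proteins to the kinetochore, stood at 33.7, 25.5, 33.4 and 36.4 CPM in Apc libraries, against 12.1, 11.5, 7.15 and 5.85 CPM in WT libraries (log2 fold change 1.81, SE 0.22, edgeR adjusted p = 5.05e-05). Bub1 was uneven in WT, where replicates 1 and 2 had clearly more than replicates 3 and 4, yet every Apc library lay above all of them. Bub1b (BubR1), part of the inhibitor of the anaphase-promoting complex, changed by 1.56 (SE 0.21), the upstream kinase Ttk (Mps1) by 1.56 (SE 0.21) and Mad2l1 (Mad2) by 1.28 (SE 0.13). Bub3, which binds phosphorylated Knl1, was the least changed of the 45 called genes. It had 88.3, 84.3, 83.1 and 99.1 CPM in Apc libraries, against 61.7, 56.2, 57.3 and 60.2 CPM in WT libraries (log2 fold change 0.59, SE 0.08, edgeR adjusted p = 0.000136). The Bub3 groups were tight and did not overlap, and its WT level was the highest of the 5 in CPM per kb of exon (8.402, against 4.19 for Bub1b, 2.85 for Mad2l1, 2.099 for Bub1 and 1.20 for Ttk).

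All 8 centromere and kinetochore genes were higher in Apc than in WT (median 1.30). Cenpa, the histone variant that marks the centromere, averaged 69.9 ± 8.59 CPM in Apc and 28.5 ± 5.66 CPM in WT libraries (log2 fold change 1.30 (SE 0.14)). The 4 subunits of the Ndc80 complex, which grips the microtubule, were unequal: 1.51 (SE 0.12) for Ndc80 and 1.29 (SE 0.19) for Nuf2, against 0.96 (SE 0.12) for Spc24 and 0.67 (SE 0.10) for Spc25. The difference between the subunits was not tested. The scaffold Knl1 changed by 1.35 (SE 0.23), the kinesin Cenpe by 1.27 (SE 0.19) and Cenpf, a large protein of the outer kinetochore, by 1.43 (SE 0.16).

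Kinesins and midzone genes were higher in 9 of 9 (median 1.44), each over 2-fold. Ect2, the exchange factor that switches on RhoA at the cleavage furrow, had the highest fold change of the 46. Ect2 (chr3:27097222-27153878, GRCm38, minus strand) stood at 70.3, 52.7, 50.6 and 77.6 CPM in Apc Eif3h libraries, 69.3, 53.8, 72.7 and 70.1 CPM in Apc libraries, and 19.8, 18.4, 14.4 and 11.9 CPM in WT libraries (log2 fold change 2.04, SE 0.18, edgeR adjusted p = 1.07e-05 for Apc against WT). Each Apc and Apc Eif3h library was far above the highest WT library. Prc1, which bundles antiparallel microtubules in the midzone, changed by 1.63 (SE 0.21), Kif20a, which acts in cytokinesis, by 1.61 (SE 0.25), the depolymerase Kif2c by 1.56 (SE 0.17) and Kif11, which pushes spindle poles apart, by 1.44 (SE 0.17). Anillin (Anln), a scaffold of the contractile ring, changed by 1.33 (SE 0.21), the chromokinesin Kif4 by 1.10 (SE 0.17), Nusap1, which binds spindle microtubules near chromosomes, by 1.06 (SE 0.13) and the centralspindlin motor Kif23 by 1.02 (SE 0.19). Kif20a shares 29.3% of its exon bases with Cdc23 on the opposite strand, and Kif4 15.1% with Pdzd11. In all, 12 of the 46 genes overlap exons of a gene on the opposite strand, and the strand setting of the counting is not given in the sources used here. Those counts may therefore have lost reads from the shared bases or may hold reads of the neighbour.

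The 6 chromosome structure genes were higher (median 1.27). Top2a, the topoisomerase that untangles sister chromatids, had the most counts of the 46, at 325, 215, 209.9 and 271 CPM in Apc Eif3h libraries, 287, 237, 278 and 303 CPM in Apc libraries, and 131, 105, 90.1 and 80.2 CPM in WT libraries (log2 fold change 1.44, SE 0.17, edgeR adjusted p = 4.42e-05 for Apc against WT). Within WT, replicate 1 was highest and replicate 4 lowest, and no WT library reached an Apc library. Mki67, which coats mitotic chromosomes and is the usual marker of dividing cells, changed less, by 1.01 (SE 0.16). Of the condensin genes, Smc2 changed by 1.43 (SE 0.15) and its partner Smc4 by 0.77 (SE 0.11), and the condensin I subunits Ncapg and Ncapd2 changed by 1.63 (SE 0.18) and 1.11 (SE 0.15).

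Among the 4 genes of anaphase onset, 3 were higher in Apc than in WT and 1 was not called. Cdc20, the activator of the anaphase-promoting complex, changed by 1.22 (SE 0.16), its ubiquitin-conjugating enzyme Ube2c by 1.20 (SE 0.13) and separase (Espl1) by 1.48 (SE 0.22). The gene not called was Pttg1 (chr11:43420250-43426251, GRCm38, minus strand), which encodes securin, the inhibitor of separase. Pttg1 stood at 18.7, 18.9, 19.2 and 17.99 CPM in Apc Eif3h libraries, 18.2, 24.2, 16.9 and 22.3 CPM in Apc libraries, and 21.8, 18.9, 25.4 and 26.4 CPM in WT libraries. The 3 groups overlapped, and the mean was lowest in Apc Eif3h and highest in WT, whereas the mean of separase was lowest in WT. The fold change was -0.18 (SE 0.13), edgeR adjusted p = 0.279, for Apc against WT and -0.31 (SE 0.13), edgeR adjusted p = 0.0632, for Apc Eif3h against WT. Espl1, set beside it, had 29.5, 23.2, 17.9 and 28.3 CPM in Apc Eif3h libraries, 27.3, 21.2, 28.4 and 29.1 CPM in Apc libraries, and 13.6, 9.97, 7.24 and 7.00 CPM in WT libraries. With scaling by library totals alone, Pttg1 was 0.061 for Apc against WT, so its direction in that comparison rests on the scaling. Pttg1 is one of the 4 genes without either promoter element, and its RefSeq start lies 270 bases inside the GENCODE gene, while Nusap1, Nuf2 and Mad2l1, which also have neither, were higher.

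**Figure D3:**
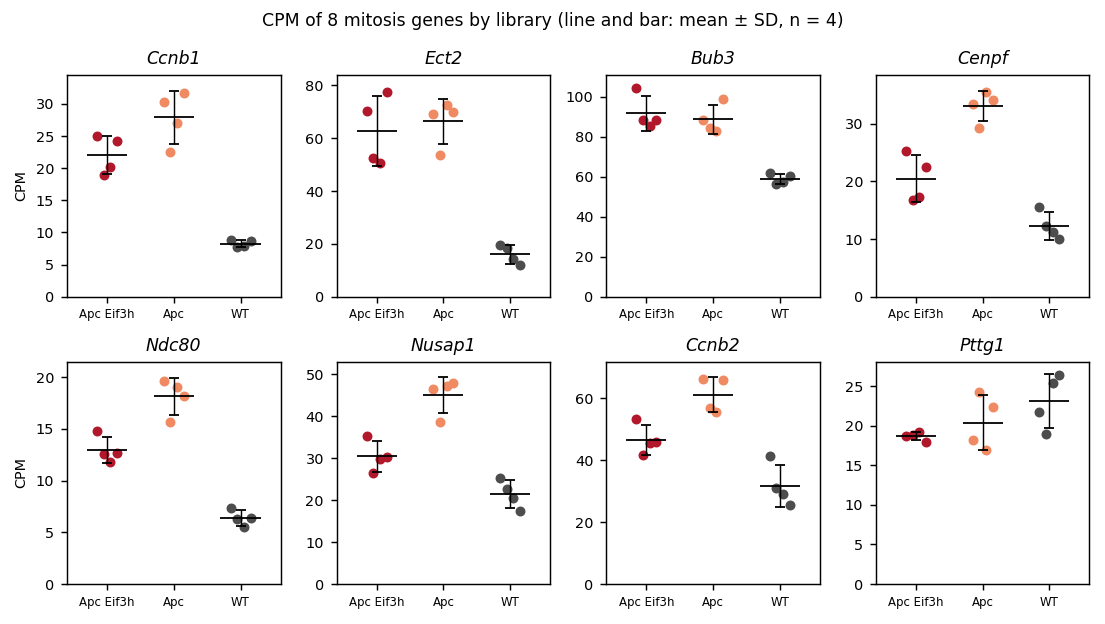
CPM per library of 8 mitosis genes in Apc Eif3h, Apc and WT small intestine (points: libraries; line and bar: mean ± SD, n = 4), on axes that start at 0. Ccnb1, Ect2 and Bub3 separate both Apc groups from WT, Cenpf, Ndc80, Nusap1 and Ccnb2 also separate Apc Eif3h from Apc, and the 3 groups overlap in Pttg1.

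Between the Apc Eif3h and Apc groups, the share of these genes called in either direction (6.52%) was close to that of all genes (7.05%), and most of the fold changes lay slightly below 0. For Apc Eif3h against Apc 3 of the 46 genes were called lower, against 2.78% of all genes tested, and 0 were called higher, against 4.27% of all genes. DESeq2 called 3 lower and 0 higher. At an unadjusted p below 0.05, 10 of the 46 were lower (21.7%), against 11% of all genes, and 0 were higher, against 12.6%. The fold change was below 0 in 36 of the 46 genes, with a median of -0.15 beside -0.00 over all genes tested. That median was -0.24 with 42 genes below 0 without Apc Eif3h replicate 1, -0.067 with 29 below 0 without Apc Eif3h replicate 3, -0.23 with 41 without Apc replicate 2 and -0.089 with 35 without Apc replicate 4. The fold change ran between -0.69 for Cenpf and 0.35 for Gtse1. In 4 genes (8.70%) every Apc Eif3h library lay below every Apc library, against 7.26% of all genes: the 3 called ones and Ccnb2. Enterocyte markers summed to 8511 to 14004 CPM in Apc Eif3h libraries and 6592 to 12821 CPM in Apc libraries, with 0 of 5 called. The 4 fibroblast markers summed to 406 to 550.0 CPM in Apc Eif3h libraries and 583 to 960 CPM in Apc libraries, which did not overlap, with 0 of 4 called. No T cell, macrophage, smooth muscle or endothelial marker was called, and the part of these cells in the difference was not tested.

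The 3 lower genes were Cenpf and Ndc80, 2 of the 8 centromere and kinetochore genes, and Nusap1, 1 of the 9 kinesins and midzone genes. Cenpf (chr1:189640606-189688086, GRCm38, minus strand) stood at 25.2, 16.8, 17.2 and 22.4 CPM in Apc Eif3h libraries, 33.3, 29.3, 35.5 and 34.05 CPM in Apc libraries, and 15.5, 12.3, 11.1 and 9.97 CPM in WT libraries. The highest Apc Eif3h library was below the lowest Apc library, and the lowest was still above the highest WT library (log2 fold change -0.69, SE 0.15, edgeR adjusted p = 0.0202 for Apc Eif3h against Apc). Ndc80 (chr17:71496100-71526857, GRCm38, minus strand) had 14.8, 12.6, 11.9 and 12.6 CPM in Apc Eif3h libraries, 19.7, 15.6, 19.1 and 18.2 CPM in Apc libraries, and 7.36, 6.27, 5.49 and 6.34 CPM in WT libraries. The groups did not overlap, although Apc Eif3h replicate 1 came within 1 CPM of Apc replicate 2 (log2 fold change -0.49, SE 0.12, edgeR adjusted p = 0.0289). Nusap1 (chr2:119618298-119651244, GRCm38, plus strand) had 35.2, 26.5, 29.8 and 30.3 CPM in Apc Eif3h libraries, 46.5, 38.7, 47.3 and 47.9 CPM in Apc libraries, and 25.4, 22.8, 20.5 and 17.5 CPM in WT libraries. Again all 4 Apc Eif3h libraries lay between the 2 other groups (log2 fold change -0.57, SE 0.12, edgeR adjusted p = 0.0188). Nusap1 has neither promoter element, Ndc80 has CHR matches without a CCAAT box, and Cenpf has both. The calls were sensitive to single libraries, while the fold changes stayed of similar size: 0 of the 46 genes were called lower without Apc Eif3h replicate 2, 0 without Apc replicate 3 and 1, Cenpf, without Apc replicate 4. Over the 12 fits that left out 1 library, the fold change ran between -0.81 and -0.60 for Cenpf, between -0.55 and -0.42 for Ndc80 and between -0.64 and -0.50 for Nusap1. The adjusted p of Ndc80 was above 0.05 in 6 of those 12 fits. Apc Eif3h replicate 2 is the library with high B cell markers, and it was the lowest of its group in Cenpf and Nusap1.

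**Figure D4:**
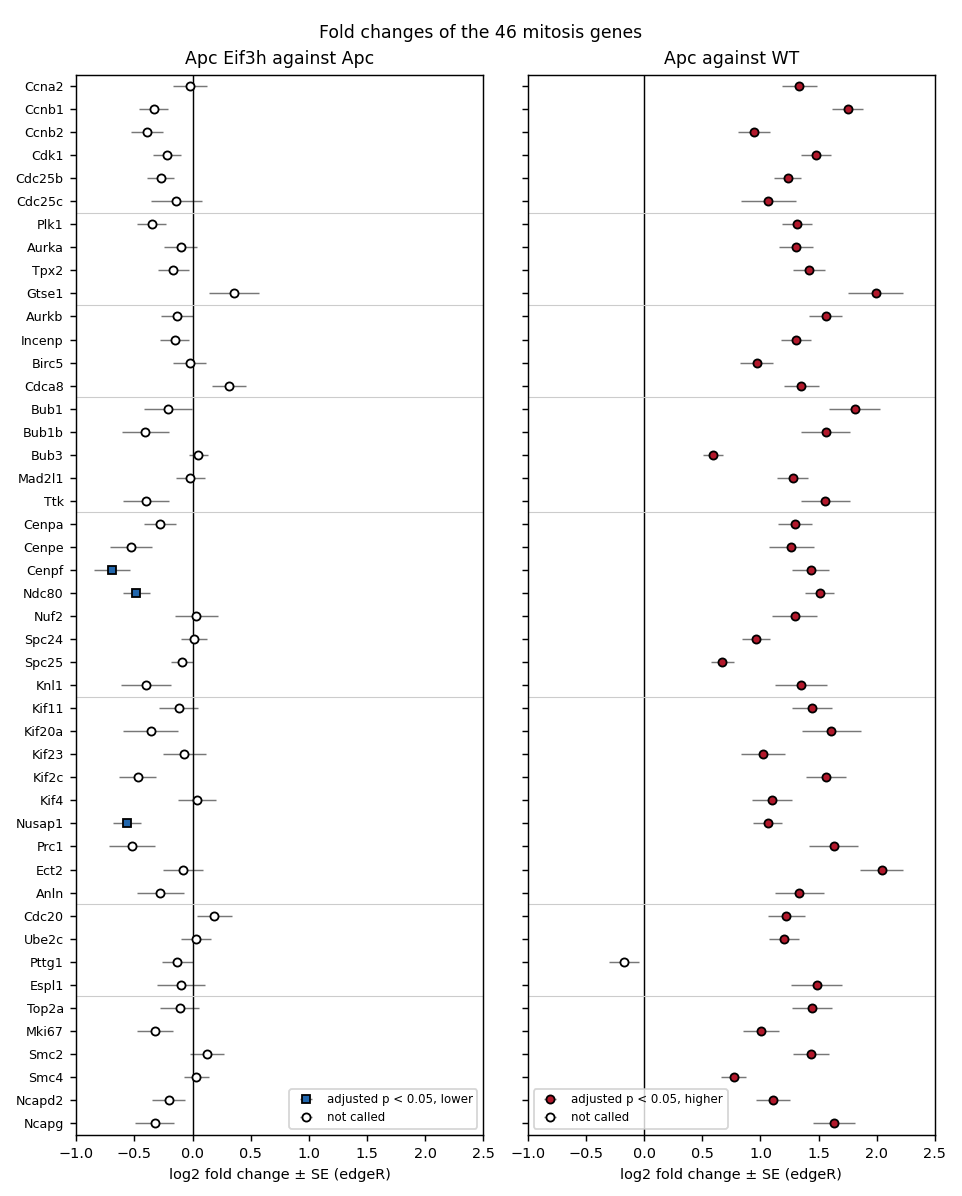
log2 fold change ± SE (edgeR) of the 46 mitosis genes for Apc Eif3h against Apc (left) and Apc against WT (right), by role; filled symbols passed an adjusted p below 0.05. On the left, 3 blue squares (Cenpf, Ndc80, Nusap1) lie below 0 and the other 43 genes are open, and on the right all but Pttg1 are filled and above 0.

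By role the medians of Apc Eif3h against Apc were lowest for centromere and kinetochore genes (-0.34) and for kinesins and midzone genes (-0.28), and nearest 0 for anaphase onset (-0.03) and the chromosomal passenger complex (-0.08). The remaining roles had medians of -0.25 for the entry switch, -0.21 for the checkpoint, -0.16 for chromosome structure and -0.14 for kinases and spindle assembly. None of these differences between roles was tested. Cyclin B2, whose groups did not overlap, had 53.4, 41.7, 45.6 and 45.8 CPM in Apc Eif3h libraries, against 66.3, 56.9, 55.6 and 65.96 CPM in Apc libraries (log2 fold change -0.39, SE 0.13, edgeR adjusted p = 0.0976). Cenpe, the kinesin that carries chromosomes to the spindle equator, had 23.3, 20.1, 17.5 and 24.1 CPM in Apc Eif3h libraries, against 30.4, 23.2, 34.2 and 34.98 CPM in Apc libraries, and here Apc Eif3h replicates 1 and 4 overlapped Apc replicate 2 (log2 fold change -0.53, SE 0.18, edgeR adjusted p = 0.102). Prc1 was -0.52 (SE 0.20) with an edgeR adjusted p of 0.137, Kif2c -0.47 (SE 0.16) with 0.0963, Plk1 -0.35 (SE 0.13) with 0.113 and Ccnb1 -0.33 (SE 0.13) with 0.128, all short of the threshold. Within the Ndc80 complex, Ndc80 was called lower, while its direct partner Nuf2 was 0.03 (SE 0.18), Spc24 0.01 (SE 0.11) and Spc25 -0.09 (SE 0.09). The difference between these subunits was not tested. On the other side of 0, Gtse1 was 0.35 (SE 0.21) and Cdca8 0.31 (SE 0.15), neither called (edgeR adjusted p = 0.344 and 0.214). Cdca8 had 81.9, 65.1, 49.1 and 70.6 CPM in Apc Eif3h libraries, against 60.3, 45.5, 48.5 and 60.4 CPM in Apc libraries. Apc Eif3h replicates 1, 2 and 4 exceeded every Apc library, and replicate 3 did not.

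For Apc Eif3h against WT 45 of the 46 genes were called higher and 0 lower, against 29.8% of all genes called higher and 28.1% called lower, and DESeq2 gave the same counts. At an unadjusted p below 0.05, 1 gene, Pttg1, was lower, against 31% of all genes. Over 2-fold higher were 29 of the 46, against 11.8% of all genes, and the median was 1.15 beside -0.03 over all genes. In 44 of the 46 the groups did not overlap, against 26.9% of all genes. Of the called genes, only Cenpe overlapped, with 23.3, 20.1, 17.5 and 24.1 CPM in Apc Eif3h libraries, against 17.8, 12.6, 10.2 and 10.3 CPM in WT libraries (log2 fold change 0.74, SE 0.19, edgeR adjusted p = 0.00533). The smallest called change was in Nusap1 (0.50 (SE 0.12)) and the largest in Gtse1 (log2 fold change 2.34, SE 0.24, edgeR adjusted p = 9.99e-06), followed by Ect2 (1.96 (SE 0.18)) and Cdca8 (1.67 (SE 0.15)). This comparison shares its WT libraries with Apc against WT and its Apc Eif3h libraries with Apc Eif3h against Apc. Enterocyte markers summed to 8511 to 14004 CPM in Apc Eif3h libraries and 16609 to 22781 CPM in WT libraries, with 3 of 5 called lower. Also called lower were 4 of 6 T cell, 3 of 4 macrophage and 3 of 4 fibroblast markers. So were 2 of 4 smooth muscle, 3 of 3 endothelial and 2 of 4 small intestine markers. Of the 6 epithelial markers 1 was called higher and 1 lower. Of the 5 B cell markers tested 2 were called higher. In 1 of the 10 listed B cell genes every Apc Eif3h library lay above every WT library, while the Apc Eif3h sum was high in replicate 2 alone. The 10 listed B cell genes summed to 958 CPM there and to 20.8 to 21.4 CPM in the other Apc Eif3h libraries. Those other libraries lay below the 28.9 to 163 CPM of WT libraries. The part of these changes in the mitotic values was not tested.

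Within a group, the same libraries tended to hold the highest or the lowest value for many of the 46 genes. Their summed level was 2701, 2060, 1908 and 2373 CPM in Apc Eif3h libraries, 2676, 2147, 2449 and 2714 CPM in Apc libraries and 1268, 1110, 968 and 912 CPM in WT libraries. The Apc Eif3h mean was 90.5% of the Apc mean, with overlapping groups, and the Apc mean was 2.35 times the WT mean. Apc Eif3h replicate 1 was the highest of its group in 40 of the 46 genes and replicate 3 the lowest in 33, with replicate 2 the lowest in 11. Apc replicate 2 was the lowest of its group in 37 genes, and WT replicate 1 the highest in 36, while the lowest WT library was replicate 4 in 26 genes and replicate 3 in 15. Pttg1 did not follow this order: its highest values were in Apc replicate 2 and in WT replicate 4. Enterocyte sums were 10534, 8511, 14004 and 9806 CPM in Apc Eif3h libraries, 6592, 12821, 8387 and 8479 CPM in Apc libraries and 16609, 17833, 22781 and 20761 CPM in WT libraries. Apc Eif3h replicate 3 and Apc replicate 2 were thus highest in enterocyte markers and lowest in the mitotic sum. Apc Eif3h replicate 2, however, was lowest of its group in enterocyte markers and second lowest in the mitotic sum. WT replicate 1 was lowest of its group in enterocyte markers and highest in the mitotic sum. It was also the highest WT library in B cell (163 CPM), fibroblast (1362 CPM), macrophage (275 CPM) and endothelial markers (134 CPM). In T cell, smooth muscle and erythroid markers it was not the highest. The part of these cells in the order of libraries was not tested. The 46 genes are not 46 independent observations, since they share libraries.

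**Figure D5:**
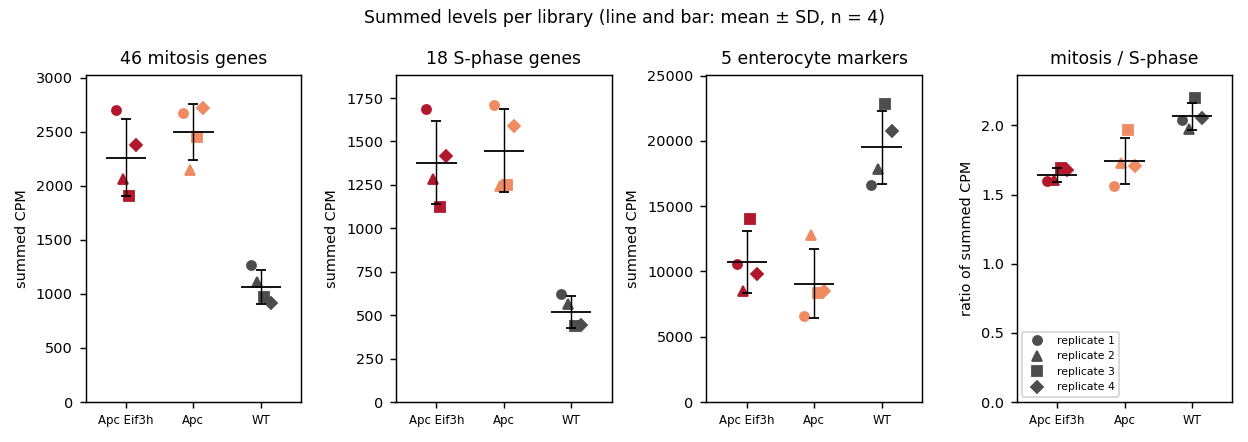
Summed CPM per library of the 46 mitosis genes, 18 S-phase replication genes and 5 enterocyte markers, and the ratio of the mitosis sum to the S-phase sum, in Apc Eif3h, Apc and WT small intestine (symbols: replicates 1 to 4; line and bar: mean ± SD, n = 4; axes start at 0). The mitosis and S-phase sums of both Apc groups lie above WT, the enterocyte sums below, and the ratio is 1.57 to 1.96 in Apc libraries and 1.97 to 2.20 in WT libraries.

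The S-phase replication genes, a list of 18 that copy DNA before mitosis, were all higher in Apc than in WT, with a median log2 fold change of 1.56 beside 1.32 for the 46 mitotic genes. Gins1, part of the replicative helicase, changed by 1.83 (SE 0.15), Mcm2 of the same helicase by 1.84 (SE 0.16) and thymidylate synthase (Tyms) by 1.38 (SE 0.13). Their summed level was 1688, 1286, 1126 and 1414 CPM in Apc Eif3h libraries, 1710, 1244, 1247 and 1589 CPM in Apc libraries and 623, 563, 441 and 444 CPM in WT libraries. The ratio of the mitotic to the S-phase sum was 1.64 ± 0.05 in Apc Eif3h libraries, 1.74 ± 0.17 in Apc libraries and 2.07 ± 0.10 in WT libraries (SD, n = 4 each). Every Apc Eif3h and Apc library lay below every WT library in that ratio, by a narrow margin for Apc replicate 3 (1.96) against WT replicate 2 (1.97). In Apc Eif3h against Apc, 0 of the 18 were called in either direction (median -0.07), against 7.05% of all genes.

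By promoter class, the median log2 fold change of Apc against WT was 1.35 for the 27 genes with both elements, 1.35 for the 5 with a CHR element alone, 1.52 for Bub1 and Cdc25b, which had a CCAAT box alone, and 1.17 for the 4 with neither, of which Pttg1 is one. Of 19 listed regulators of mitotic transcription, 11 were higher in Apc than in WT (57.9%), against 27.7% of all genes, and 4 lower (21.1%), against 24.1% of all genes (median 0.45). The share that was lower thus lay near that of all genes. By smallest p the higher ones were E2f1 (1.55 (SE 0.17)), an activator of S-phase genes, and E2f4 (0.72 (SE 0.09)) and Rbbp4 (0.78 (SE 0.09)), which sit in the DREAM complex. The lower ones were the retinoblastoma gene Rb1 (-0.71 (SE 0.12)), its relative Rbl2 (-0.35 (SE 0.08)), E2f2 (-0.53 (SE 0.12)) and the MuvB subunit Lin37 (-0.32 (SE 0.10)). Rb1 had 44.7, 43.3, 57.8 and 51.7 CPM in Apc Eif3h libraries, 42.7, 54.9, 53.1 and 44.1 CPM in Apc libraries, and 69.1, 80.3, 84.7 and 84.03 CPM in WT libraries, so each Apc and Apc Eif3h library lay below each WT library. Mybl2 (B-Myb) and Foxm1, named here for their role after their values were seen, changed by 2.02 (SE 0.30) and 1.37 (SE 0.21). Mybl2 stood at 75.3, 46.8, 29.2 and 62.1 CPM in Apc Eif3h libraries, 42.1, 25.9, 30.6 and 37.2 CPM in Apc libraries, and 10.5, 10.6, 7.15 and 5.03 CPM in WT libraries, a wide spread within Apc Eif3h in which replicate 1 was highest and replicate 3 lowest, as for most of the 46. For Apc Eif3h against Apc 0 of the 19 were called, and Mybl2 was 0.65 (SE 0.28) with an edgeR adjusted p of 0.178.

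Beyond the 46 genes, 143 other mitotic genes in 11 lists (the regulators above among them) were examined. Of the 141 that could be tested, 108 were higher in Apc than in WT (76.6%), against 27.7% of all genes, and 8 lower (5.67%), against 24.1% of all genes, with a median log2 fold change of 0.95. The share that was higher was lowest for cytokinesis genes, at 55.6%. Ccnb3 and Kif2b had 0 counts in every library and were not tested. Other checkpoint genes were higher in 9 of 10 (median 1.53, with Trip13 at 1.76, Zwilch at 1.62 and Sgo1 at 1.55), outer kinetochore genes in 9 of 9 (median 1.27) and inner kinetochore genes in 18 of 21 (median 1.16). Kinesins were higher in 7 of 8 (median 1.25), Cdk1 regulators in 13 of 16 (median 1.13, with the inhibitory kinase Wee1 at 1.29 and the Cdk1-binding protein Cks1b at 1.73), spindle and centrosome genes in 13 of 17 (median 1.09) and condensin genes in 4 of 4 (median 0.99). Cytokinesis genes were higher in 5 of 9 (median 0.82), among them the abscission protein Cep55 at 2.07. The anaphase-promoting complex and cohesin, which also work outside mitosis, had medians of 0.45 (12 of 17 higher) and 0.49 (7 of 11 higher). The 4 remaining genes called lower were Ensa (-0.47), Cdc25a (-0.25), Anapc2 (-0.25) and Mad2l1bp (-0.62), beside the 4 regulators above.

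For Apc Eif3h against Apc 5 of the 141 were called higher (3.55%), against 4.27% of all genes, and 4 lower (2.84%), against 2.78% of all genes, so both shares lay near those of all genes. The higher ones included 3 genes of the anaphase-promoting complex: the RING subunit Anapc11 (0.32), the small subunit Anapc16 (0.81) and the late activator Fzr1 (0.25). Anapc16 had 100.4, 91.5, 78.1 and 87.3 CPM in Apc Eif3h libraries, 51.6, 51.5, 45.3 and 55.4 CPM in Apc libraries, and 46.3, 42.2, 46.1 and 45.1 CPM in WT libraries, and the Apc Eif3h libraries stood well clear of both other groups (log2 fold change 0.81, SE 0.09, edgeR adjusted p = 0.00124 for Apc Eif3h against Apc). The others were Mis12 of the outer kinetochore (0.49) and gamma-tubulin Tubg1 (0.79), and in both the Apc Eif3h and Apc libraries overlapped. Called lower were the microtubule-binding Dlgap5 (-0.69) and stathmin Stmn1 (-0.58), the condensin II subunit Ncapd3 (-0.40) and cyclin A1, Ccna1 (-2.18). Stmn1 had 62.6, 56.4, 60.1 and 47.2 CPM in Apc Eif3h libraries, 86.6, 93.1, 72.3 and 87.03 CPM in Apc libraries, and 35.3, 28.4, 35.3 and 28.2 CPM in WT libraries, with the Apc Eif3h libraries between the other groups and no overlap (log2 fold change -0.58, SE 0.11, edgeR adjusted p = 0.012). Ccna1 was near the limit of detection, with 2 to 4 counts per Apc Eif3h library, 9 to 17 per Apc library and 6 to 10 per WT library. For Apc Eif3h against WT 112 of the 141 were higher (79.4%), against 29.8% of all genes, and 10 lower (7.09%), against 28.1% of all genes (median 0.83).

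Per kb of exon the 46 genes spanned a wide range of levels. In Apc libraries the mean ran between 1.57 CPM per kb for Cdc25c and 39.98 for Ccnb2, with Ube2c at 34.2, Top2a at 30.6, Ccna2 at 25.5 and Smc4 at 23.5 next below Ccnb2. In Apc Eif3h libraries the range was 1.32 for Cenpf to 34.96 for Ube2c, and in WT libraries 0.746 for Cdc25c to 20.7 for Ccnb2. In Apc Eif3h libraries Ube2c thus stood above Ccnb2 (30.5), the other way round from Apc and WT, a difference that was not tested. The Ube2c exons overlap those of Tnnc2 by 22.8%, so reads of Ube2c may have been lost there. Tnnc2 itself had 2 counts over all 12 libraries.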

How the data were processed

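RNA of mouse small intestine (RNeasy Micro kit, TruSeq RNA libraries, NextSeq 500 paired reads, per the labels' protocols) was sequenced for 12 libraries, and the authors deposited raw counts, whole numbers for each gene identifier. Tools in the submitters' processing notes are HISAT2 2.1.0 and featureCounts 1.6.4, with FastQC 0.11.8, Trim Galore 0.6.4 and build GRCm38. Strandedness, multi-mapping and the annotation release are not stated there, and reads shared with overlapping or near-identical genes can be lost or misplaced. Of 55421 identifiers 55154 matched a GENCODE M21 symbol, and the rest held 0.00226% of counts.

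Groups came from the sample titles and genotypes. Testing used the quasi-likelihood functions of edgeR 4.0.16 (R 4.3.3) on the deposited counts after filterByExpr and TMM scaling, with 1 mean per group over all 12 libraries, Benjamini-Hochberg adjustment over the 17394 genes tested in each of the 3 contrasts and calls at an adjusted p below 0.05. SE is the absolute log2 fold change over the square root of F. CPM per kb divides by the union of GENCODE exons, which can be longer than the mRNA made. Ranks between genes per kb therefore depend on the annotation too. The procedure was tested on simulated counts. Alternatives were scaling by library totals or by DESeq2 size factors, DESeq2 1.42.0 itself, no low-count filter, only the 2 groups compared, sex as covariate, males only, a replicate block, stricter calls and leaving out each library. Library pairs of a group differed by more than sampling noise (chi-square per gene 17.5 to 51.5), so all 12 were kept.

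The members and lists were chosen with earlier results of these data known. All 46 members could be named. Of other mitotic genes, up to 3 called per list by smallest p and every gene of a count of 5 or fewer could be named; Mybl2 and Foxm1 were added later. Promoters were chosen as the 3 highest and 3 lowest in mean CPM with both elements among genes called in Apc against WT, leaving out chromosome 18. Bub3 fell under that rule and was left out, after its values were seen, because its annotated starts differ. Ncapd2, next in mean CPM, was left out for the same reason, and Ube2c was printed. Their RefSeq starts lie 148 and 272 bases (Bub3) and 115 bases (Ncapd2) inside the GENCODE gene.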

Additional observations from a re-analysis of the deposited data

Results flagged for a closer look

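In the Apc group, 3 of the 46 genes had 1 library far from the other 3: the gap from that library to its nearest neighbour, over the group's range, was above Dixon's 95% critical value for 4 values. Over the 138 groups of 4 examined, chance alone gives such a gap in about 1 of 20. Mki67 was 148 CPM in Apc replicate 2, against 183 to 184 CPM in the other Apc libraries (gap over range 0.969). Ncapd2 was 112 CPM in Apc replicate 1, against 86.8 to 89.4 CPM in the others (0.895). Nusap1 was 38.7 CPM in Apc replicate 2, against 46.5 to 47.9 CPM in the others (0.851). Apc replicate 2 was the lowest of its group in 37 of the 46 genes, and it had the highest enterocyte sum of its group, 12821 CPM.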

How the results depend on the processing

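The 45 genes called higher for Apc against WT and for Apc Eif3h against WT stayed 45 under every other scaling, test, filter, covariate and left-out library, and with a 2-fold limit they were 39 for Apc against WT and 29 for Apc Eif3h against WT. The 3 called lower for Apc Eif3h against Apc became 0 at an adjusted p below 0.01, 0 with a 2-fold limit, and 0 to 4 when 1 library was left out. Without WT replicate 1 Ccnb2 joined them (adjusted p = 0.0416). Ndc80 lost its call with no filter (adjusted p = 0.0503), with only the 2 groups (0.0501), with sex as covariate (0.0527) and in males only (0.0903). Leaving out 1 library also gave 0 to 1 called higher for Apc Eif3h against Apc (Cdca8, 0.46, without Apc Eif3h replicate 3) and 0 to 1 called lower for Apc Eif3h against WT (Pttg1, -0.39, without WT replicate 2). The cause of these changes was not tested.

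Over all genes 9012 were called for Apc against WT, 10059 for Apc Eif3h against WT and 1226 for Apc Eif3h against Apc. The count for Apc Eif3h against Apc was 817 with no filter, 659 in males only, 263 at an adjusted p below 0.01 and 215 with a 2-fold limit, which left 2764 for Apc against WT and 3540 for Apc Eif3h against WT. Leaving out 1 library gave 7832 to 9398 for Apc against WT, 8949 to 10168 for Apc Eif3h against WT and 406 to 1767 for Apc Eif3h against Apc. Scaling by library totals moved the median of all genes to 0.22 for Apc against WT and 0.17 for Apc Eif3h against WT, beside 1.55 and 1.34 for the 46 genes. It moved the share of calls that were higher to 74% from 53.5% for Apc against WT, to 49.8% from 60.6% for Apc Eif3h against Apc and to 67.5% from 51.5% for Apc Eif3h against WT.

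Some log2 fold changes near 0 changed sign. Pttg1 was 0.061 for Apc against WT with library totals. For Apc Eif3h against Apc, Spc24 was -0.019 with library totals and -0.015 with sex as covariate, Birc5 was 0.023 with sex as covariate and 0.066 in males only, and Ccna2 and Mad2l1 were 0.046 and 0.053 in males only. When 1 library was left out, the range in that comparison was -0.143 to 0.097 for Ccna2, -0.16 to 0.066 for Birc5, -0.030 to 0.070 for Spc24, -0.112 to 0.066 for Mad2l1, -0.059 to 0.181 for Nuf2 and -0.091 to 0.178 for Kif4. It was -0.079 to 0.114 for Ube2c, -0.046 to 0.13 for Smc4, -0.020 to 0.105 for Bub3, -0.201 to 0.023 for Aurka, -0.193 to 0.044 for Kif23, -0.199 to 0.031 for Ect2 and -0.194 to 0.049 for Espl1.

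With the replicate number as a block, 45 of the 46 genes were called higher for Apc against WT, 3 lower for Apc Eif3h against Apc and 45 higher for Apc Eif3h against WT, so the block changed no count. Same-numbered libraries shared only a number: the correlation of their deviations ran between -0.14 and 0.24 over 12 pairs, with 3 above 0.1. Depth limits the scarce genes most, such as Ccna1 with 2 to 4 counts per Apc Eif3h library and 9 to 17 per Apc library.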
